A study of Bos taurus with 12 samples.

Results

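The fibrillar collagen genes COL1A1, COL1A2, COL3A1 and COL5A2 were followed in papillae of the ventral sac of the rumen of 4 Holstein dairy cows. Each cow was sampled on a high forage diet, which served as the control (week 0), and again in weeks 1 and 3 of a grain challenge. This gave 12 Affymetrix arrays, 4 per week, with every week represented by the same 4 animals. The labels give no age or stage of lactation, and no cows kept on forage throughout are among the samples, so diet and time cannot be told apart. The members were all probe sets whose only gene symbol in the array annotation is one of these 4, which gave 7 probe sets for the 4 genes, out of 13292 probe sets naming 1 gene and 9155 genes in all. COL1A1, COL1A2 and COL3A1 had 2 probe sets each and COL5A2 had 1. A probe set is a group of short probes that read 1 transcript or a stretch of it. Those of a gene are told apart here by the end of their array name, which is S1_at and A1_at for COL1A1 and S1_at and S2_at for COL1A2 and COL3A1.

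Fibrillar collagens are the rod-shaped triple helices that pack into the banded fibrils of connective tissue. COL1A1 and COL1A2 encode the chains of type I collagen, the main fibril of most connective tissues, COL3A1 encodes type III collagen, which forms finer fibrils with type I in distensible organs, and COL5A2 encodes a chain of type V collagen, which is buried in type I fibrils and limits their diameter. In the rumen papilla these fibrils lie in the connective tissue core beneath the stratified squamous epithelium, where fibroblasts make them. The chains are hydroxylated and folded in the endoplasmic reticulum, trimmed of their propeptides outside the cell and crosslinked into fibrils.

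All values are log2 values from the deposited table, where each probe set was centred so that its 12 arrays have a median of 0. They show differences between arrays of 1 probe set and hold no level, so neither the abundance of 1 collagen against another nor the presence of the tissue's defining markers could be read from them. The medians of all 24016 probe sets lay between -0.05 and 0.05 on the 12 arrays. Their interquartile range was 0.21 on week 1 of cow 1, the widest, and 0.02 to 0.11 on the remaining arrays. On 3 arrays the 18 controls for hybridization, which read RNA spiked in at that step, stood high on average: week 0 of cow 1 was at 0.49, week 1 of cow 1 at 0.48 and week 0 of cow 2 at 0.72. The remaining 9 arrays had averages of -0.32 to 0.05. The 3' minus the 5' value of 6 control transcripts was used to compare RNA integrity between arrays. On centred values it shows shifts between arrays only and cannot tell whether the RNA was intact. Its weekly means were 0.00 ± 0.09 at week 0, -0.03 ± 0.07 at week 1 and 0.06 ± 0.08 at week 3 (SD, n = 4). The number of arrays limits the precision of every value below.

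In all but 1 of the probe sets of the type I chains, each cow had its lowest value on forage. For the COL1A1 probe set S1_at the values of cows 1 to 4 were -0.35, -0.39, -0.81 and -0.76 at week 0, 0.18, 0.55, -0.07 and -0.28 at week 1, and 0.07, 0.37, 0.62 and 0.28 at week 3. The 4 forage arrays lay below all 8 grain arrays, while the arrays of weeks 1 and 3 overlapped. The weekly means of this probe set were -0.58 ± 0.24, 0.10 ± 0.36 and 0.33 ± 0.23 (SD, n = 4). The other COL1A1 probe set, A1_at, hardly varied: its 12 values lay between -0.07 and 0.11, and 22.1% of all probe sets had a lower SD. Its weekly means were -0.02, 0.02 and 0.01, while the SD of S1_at was above that of 95.5% of probe sets.

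Both probe sets of COL1A2, the partner chain of COL1A1 in type I collagen, varied with the week. For S2_at the values of cows 1 to 4 were -0.51, -0.78, -0.49 and -0.54 at week 0, -0.10, 0.66, 0.07 and -0.07 at week 1, and 0.24, 0.62, 1.08 and 0.41 at week 3. The forage arrays were again below all 8 grain arrays, and cow 3 at week 3 was the highest of the 12. For S1_at the values were -0.20, -0.65, -0.58 and -0.62 at week 0, 0.20, 0.24, -0.17 and -0.49 at week 1, and 0.18, 0.17, 0.32 and 0.28 at week 3. Here week 1 of cow 4 lay within the range of the forage arrays, and the week 3 arrays lay close together (SD 0.07). The weekly means were -0.58, 0.14 and 0.59 for S2_at and -0.51, -0.06 and 0.24 for S1_at.

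The probe sets of COL3A1, the chain of type III collagen, gave nearly the same profile as each other. For S2_at the values of cows 1 to 4 were -0.30, -0.71, -0.59 and -0.69 at week 0, 0.09, 0.23, -0.09 and -0.34 at week 1, and 0.28, 0.17, 0.42 and 0.18 at week 3. Only week 1 of cow 4 reached into the range of the forage arrays. For S1_at the values were -0.23, -0.57, -0.59 and -0.66, then 0.13, 0.18, -0.10 and -0.38, then 0.17, 0.10, 0.37 and 0.17 in the same order. The weekly means were -0.57, -0.03 and 0.26 for S2_at and -0.51, -0.04 and 0.20 for S1_at.

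COL5A2, the chain of the fibril-regulating type V collagen, showed the same direction, with the lowest SD over the 12 arrays of the 6 varying probe sets. For its probe set S1_a_at the values of cows 1 to 4 were -0.31, -0.27, -0.52 and -0.25 at week 0, 0.01, 0.63, -0.01 and -0.25 at week 1, and 0.01, 0.31, 0.31 and 0.15 at week 3. Cow 4 differed by less than 0.01 between weeks 0 and 1, and the forage arrays were below all 4 of week 3. The weekly means were -0.34 ± 0.12, 0.10 ± 0.38 and 0.20 ± 0.14 (SD, n = 4).

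**Figure D1:**
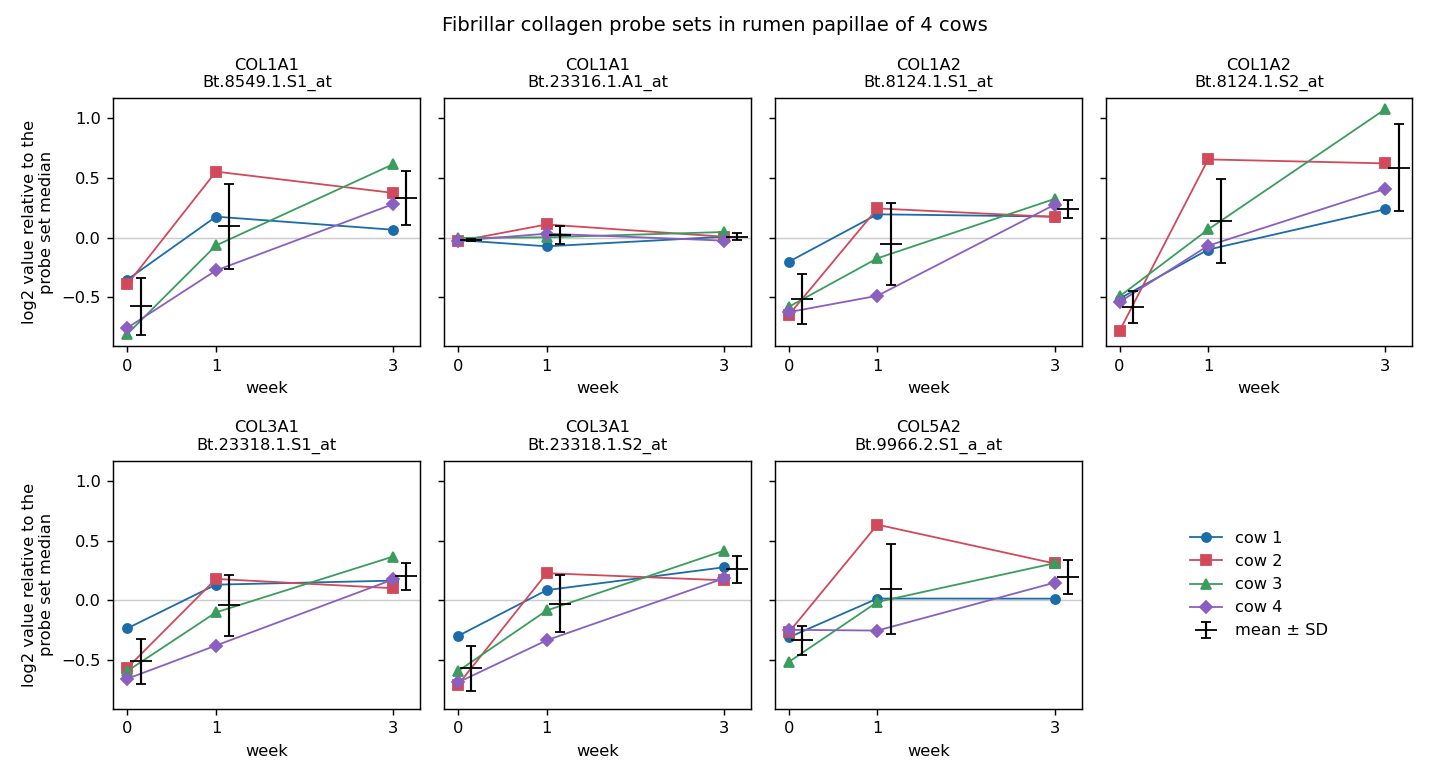
Each panel plots 1 collagen probe set, with the week on the x axis and the log2 value relative to the probe set's median over the 12 arrays on the y axis. Coloured lines join the 3 arrays of a cow and black bars give the mean and SD of the 4 cows. In 6 of 7 probe sets the week 0 values are below all week 3 values, and A1_at of COL1A1 stays between -0.07 and 0.11.

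Among the other 6 probe sets the cows kept similar places within weeks 1 and 3, and less so at week 0. COL1A2 and COL3A1 each count with both of their probe sets here. At week 1 cow 2 was highest in 6 of 6 and cow 4 lowest in 5 of 6. At week 3 cow 3 was highest in 6 of 6, and the lowest was cow 1 in 3 and cow 2 in 3. At week 0 cow 1 was highest in 4 of 6, and the lowest was cow 2 in 3, cow 3 in 2 and cow 4 in 1. The SDs between cows were 0.12 to 0.24 at week 0, 0.24 to 0.38 at week 1 and 0.07 to 0.36 at week 3, and S2_at of COL1A2 had a wider SD at week 3 (0.363) than at week 1 (0.352). Of the variance of these 6 probe sets over the 12 arrays, 54.2% to 81.6% lay between weeks and 7.11% to 19.9% between cows. The medians over all probe sets were 12.4% between weeks and 27.0% between cows. Any grouping takes up some share by chance, and this was not subtracted.

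The comparison of week 3 with week 0 asked how longer feeding of grain differed from forage. It gave the widest differences of the 6 varying probe sets. COL1A2 was at 1.17 ± 0.20 (SE, n = 4 cows) or 2.25-fold in S2_at and at 0.75 ± 0.16 in S1_at. COL1A1 was at 0.91 ± 0.19 or 1.88-fold in S1_at and at 0.03 ± 0.04 in A1_at. COL3A1 was at 0.83 ± 0.13 in S2_at and at 0.71 ± 0.13 in S1_at. COL5A2 was at 0.53 ± 0.16 or 1.45-fold. All 7 were higher in all 4 cows, as were 36.3% of all probe sets. In 6 of 7 all week 3 values were above all week 0 values, against 2.72% of all probe sets. After quantile normalization, applied to the deposited centred values, the count was 6 as well, against 1.59%. Leaving out the 3 arrays with high controls also gave 6, with 4 arrays against 2 and a background of 6.44%.

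No probe set passed the test in that comparison. Limma, adjusted over 24016 probe sets, called 0% of them at an adjusted p under 0.05, and 933 had an unadjusted p under 0.05. The collagen probe set with the smallest p was S2_at of COL3A1, the fourth of all (limma, adjusted p = 0.248). The adjusted p was 0.325 for S2_at of COL1A2, 0.597 for S1_at of COL1A1 and 0.901 for COL5A2. With the cow as a block these 4 adjusted p-values were 0.158, 0.201, 0.275 and 0.505, and the share called was 0% as well. At an unadjusted p under 0.05 6 of 7 members were higher, against 2.52% of all probe sets, and none was lower. By that p the ranks among all probe sets were 4 and 12 for COL3A1, 10 and 24 for COL1A2, 22 and 8398 for COL1A1 and 166 for COL5A2.

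In the comparison of week 1 with week 0, which concerned the first week of grain and shares the week 0 arrays with the one before, the differences of the 6 varying probe sets were smaller. COL1A2 was at 0.72 ± 0.20 (SE, n = 4 cows) or 1.65-fold in S2_at and at 0.46 ± 0.16 in S1_at. COL1A1 was at 0.67 ± 0.19 in S1_at and 0.04 ± 0.04 in A1_at. COL3A1 was at 0.54 ± 0.13 and 0.47 ± 0.13, and COL5A2 was at 0.43 ± 0.16. Of the 7 probe sets 5 were higher in all 4 cows, against 6.91% of all probe sets. COL5A2 was higher in 3 of 4 cows, with cow 4 at -0.01 and cow 2 at 0.90. The values did not overlap in 2 of 7, S1_at of COL1A1 and S2_at of COL1A2, against 2.09% of all probe sets. This count was 4 after quantile normalization, against 0.929%. Leaving out the 3 arrays with high controls gave 6, against 44.9%, with 3 arrays against 2.

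None of these differences passed the test. Limma called 0% of probe sets at week 1 against week 0, with 1237 at an unadjusted p under 0.05, and the adjusted p-values of the 7 members lay between 0.686 for S2_at of COL3A1 and 0.763. With the cow as a block the lowest was 0.296, and 0.00833% of all probe sets, none of them a collagen, were called. With an unadjusted p under 0.05 6 of 7 members were higher, against 3.28% of all probe sets. Cow 2 had the largest change in all 6 varying probe sets, for example 1.44 in S2_at of COL1A2 against 0.41 to 0.56 in the other cows. Without cow 2 that probe set was at 0.48. COL5A2 was at 0.27 without cow 2 and at 0.25 without the week 1 array of cow 2.

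The comparison of week 3 with week 1 asked whether the collagen values differed between early and later feeding of grain. The differences were 0.45 ± 0.20 and 0.29 ± 0.16 for COL1A2, 0.24 ± 0.19 and -0.01 ± 0.04 for COL1A1, 0.29 ± 0.13 and 0.24 ± 0.13 for COL3A1 and 0.10 ± 0.16 for COL5A2 (SE, n = 4 cows). None was higher in all 4 cows, against 5.12% of all probe sets, and the weeks overlapped in all 7, where 1.07% of all probe sets had week 3 above week 1 without overlap. After quantile normalization 1 of 7 did not overlap, against 1.28%. Limma called 0% of probe sets (1172 at an unadjusted p under 0.05), and the adjusted p of every member was 0.999. With an unadjusted p under 0.05 2 of 7 members were higher, S2_at of COL1A2 and S2_at of COL3A1, against 2.47% of all probe sets. With the cow as a block 1 was, S2_at of COL3A1, against 4.18%. The 95% interval of the difference ran from 0.01 to 0.57 for S2_at of COL3A1, from -0.17 to 0.65 for S1_at of COL1A1 and from -0.26 to 0.46 for COL5A2.

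The cows went different ways over this later interval. In cow 2 all 7 probe sets were lower at week 3 than at week 1, from -0.03 in S2_at of COL1A2 to -0.33 in COL5A2. In cow 3 all 7 were higher, by 1.01 in S2_at of COL1A2, and in cow 4 the 6 varying probe sets were higher, by 0.76 in S1_at of COL1A2. Cow 1 ranged from -0.11 in S1_at of COL1A1 to 0.34 in S2_at of COL1A2. The order of week 0 below week 1 below week 3 held in 3 of 4 cows for both COL3A1 probe sets and S2_at of COL1A2, against 1.31% of all probe sets with at least 3 cows. It held in 2 cows for S1_at of COL1A1 and S1_at of COL1A2 and in 1 for COL5A2. The median over the 7 member probe sets at week 3 against week 1, 0.24, was 0.13 without week 1 of cow 4 and 0.38 without cow 2. Without cow 3, S1_at of COL1A1 was at 0.09, S2_at of COL1A2 at 0.26 and COL5A2 at 0.03. Without cow 4, S1_at of COL1A1 was at 0.13, S1_at of COL1A2 at 0.14 and S1_at of COL3A1 at 0.14.

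**Figure D2:**
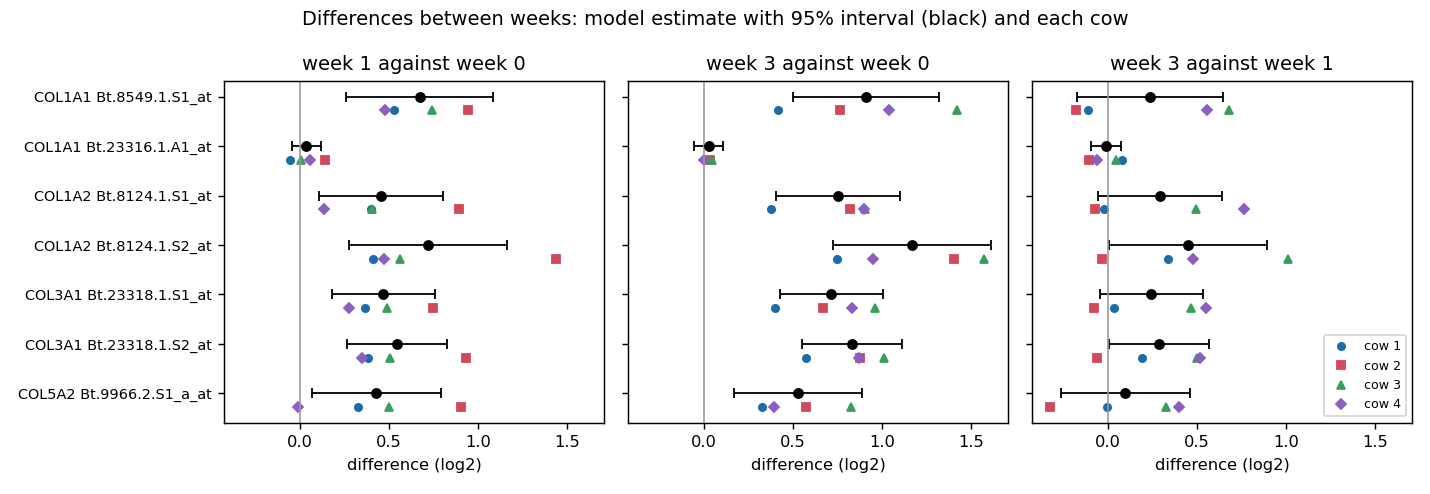
Black points give the log2 difference between 2 weeks for each collagen probe set, with the 95% interval of the limma model, and coloured symbols under them give the difference within each cow. The intervals of 6 probe sets lie above 0 in both comparisons with week 0, while at week 3 against week 1 the cows lie on both sides of 0 in every row. These intervals are not adjusted for the number of probe sets tested.

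A moderated F test over the 3 weeks together gave F values of 22.5 and 15.6 for COL3A1, 17.4 and 11.7 for COL1A2, 13.0 and 0.575 for COL1A1 and 6.06 for COL5A2. The lowest adjusted p was 0.320, for S2_at of COL3A1, and 0.185 with the cow as a block. The test called 0% of all probe sets, and 0.00416% with the block, with 1204 (5.01%) at an unadjusted p under 0.05 without it.

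The collagen probe sets varied together. Over the 12 arrays Pearson's r between pairs of the 6 varying probe sets ran from 0.82 to 0.99 with a median of 0.91 (15 pairs). After the weekly means were taken off, so that differences between the arrays within each week remained, r ran from 0.445 to 0.967. The pairs with A1_at of COL1A1 had r of 0.26 to 0.59. These values describe 12 arrays of 4 cows, which share animals, array and normalization.

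The probe sets of other genes most like the collagens were those with the highest r with the mean profile of the 4 genes. They were SPARC, a collagen-binding glycoprotein, at an r of 0.96, COL6A1, a chain of the beaded filament collagen VI, at 0.89, CDH11, a cadherin of mesenchymal cells, at 0.88, and FN1, the matrix glycoprotein fibronectin, at 0.88. The next 4 were PPIP5K2, an inositol pyrophosphate kinase, at 0.88, the CMP-sialic acid transporter SLC35A1 at 0.86, TMEM263 at 0.86 and C24H18orf32 at 0.85. Of 13285 named probe sets outside the 4 genes only SPARC had an r over 0.9, and the median r was 0.18. Once each cow's mean was taken off, r was 0.98 for SPARC and 0.96 for CDH11, and the other 6 had r of 0.85 to 0.92. Once the weekly means were taken off instead, r was 0.93 for SPARC, 0.78 to 0.90 for COL6A1, CDH11, FN1, PPIP5K2 and TMEM263, 0.47 for SLC35A1 and 0.49 for C24H18orf32. At week 3 against week 0 SPARC had a difference of 0.67 ± 0.15 (SE, n = 4 cows) with an adjusted p of 0.694 in limma, CDH11 at 0.60 ± 0.22, FN1 at 0.59 ± 0.19 and SLC35A1 at 0.34 ± 0.07. These differences are part of the profile that chose the 8 and are given as a description.

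**Figure D3:**
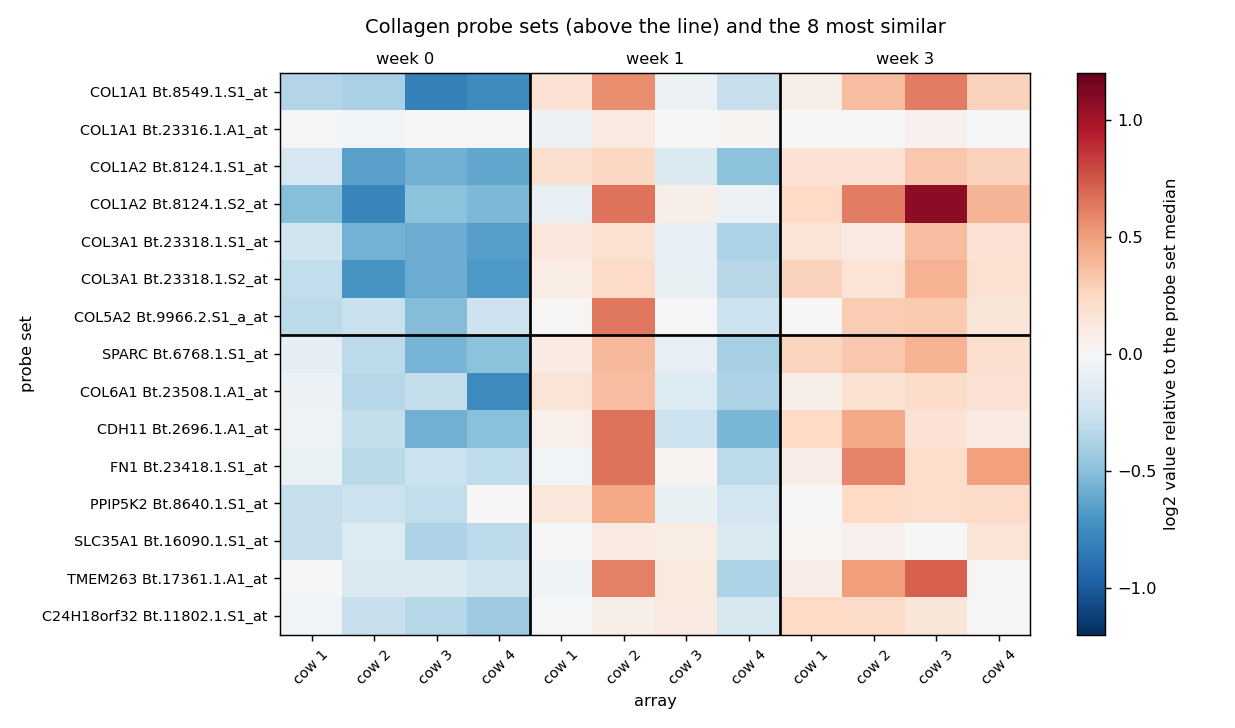
Rows are the 7 collagen probe sets and, under the horizontal line, the 8 probe sets of other genes most like them, and columns are the 12 arrays ordered by week and cow. Colour gives the log2 value relative to the probe set's median. Week 0 is low in nearly all rows, cow 2 stands high at week 1, and A1_at of COL1A1 is near 0 throughout.

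Other collagens and the genes that fold, trim, bind, sense and break down collagen were described by lists. No probe set of any list was called by limma in any of the 3 comparisons, with or without the cow as a block. The background at week 3 against week 0 was 2.52% higher and 1.36% lower at an unadjusted p under 0.05, with a median of all probe sets of 0.02 and 72.8% of them above 0. Of the other fibrillar collagens 5 genes were measured with 15 probe sets, of which 13 were above 0 at week 3, with a median of 0.02. None of the 15 had an unadjusted p under 0.05 in any comparison. The probe sets with the smallest p were 1 of COL27A1, a fibrillar collagen best known from cartilage, at 0.51 ± 0.27 and that of COL5A3, a further type V chain, at 0.22 ± 0.12. The other probe set of COL27A1 was at 0.01 ± 0.02.

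Among the fibril-associated, beaded and anchoring collagens 10 of 11 probe sets were above 0 at week 3 against week 0, with a median of 0.02, and 3 had an unadjusted p under 0.05, all higher. COL6A1 was at 0.53 ± 0.17 and COL12A1, which decorates type I fibrils, at 0.31 ± 0.11. The other probe sets of COL12A1 were at 0.32 and 0.02. Among the network and transmembrane collagens the median was 0.02, with 4 of 15 higher and 2 lower at an unadjusted p under 0.05. COL15A1, of the basement membrane zone, was at 0.61 ± 0.15, and COL4A1, a chain of the basement membrane network, at 0.43 ± 0.13. The 2 lower ones, named after their values were seen, were both of COL17A1, the hemidesmosome collagen of epithelial basal cells, at -0.36 ± 0.12 and -0.29 ± 0.10, lower in all 4 cows, as were 4.63% of all probe sets.

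The next lists hold the machinery of collagen synthesis. Of the 27 probe sets for folding, modification and export 25 were above 0 at week 3 against week 0, with a median of 0.07, and 1 was higher and 1 lower at an unadjusted p under 0.05. The higher one was of PLOD2, a lysyl hydroxylase that prepares collagen for crosslinking, at 0.63 ± 0.23, and the other probe set of PLOD2 was at 0.18 ± 0.12. The lower one was 1 of the 5 probe sets of MIA3, a receptor for export of collagen from the endoplasmic reticulum, at -0.20 ± 0.07. SERPINH1, the collagen chaperone HSP47, was at 0.02 ± 0.12, named after its value was seen. All 8 probe sets for propeptide removal and crosslinking were above 0, with a median of 0.23. PCOLCE, which enhances cleavage of the procollagen C-propeptide, was at 0.71 ± 0.22 and 0.62 ± 0.24 in its probe sets, the 2 of this list with an unadjusted p under 0.05.

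Fibril-binding proteoglycans and matricellular proteins had 28 of 34 probe sets above 0 at week 3 against week 0, with a median of 0.06, and 7 were higher and none lower at an unadjusted p under 0.05. The smallest p belonged to THBS4, a thrombospondin of tendon and muscle matrix, at 0.56 ± 0.09 (limma, adjusted p = 0.313), followed by SPARC. In collagen breakdown and its inhibitors the median was 0.02, with 4 of 36 higher and none lower. MMP2, a gelatinase, was at 0.48 ± 0.14. MRC2, an endocytic collagen receptor, was at 0.31 ± 0.10 in 1 probe set and at 0.01 ± 0.03 in the other. The collagen receptors had a median of 0.02 over 6 probe sets, with the integrin ITGB1 at 0.19 ± 0.08 and 1 probe set of ITGA2 at -0.15 ± 0.14. That ITGA2 probe set was higher at week 3 in 3 of 4 cows, and its highest forage array was at 0.66. The transforming growth factor beta pathway, a known inducer of collagen genes, had a median of 0.02, with 13 of 19 above 0 and 1 higher at an unadjusted p under 0.05. That one was the signal mediator SMAD4 at 0.15 ± 0.06, and its partner SMAD2 was at 0.12 ± 0.08.

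**Figure D4:**
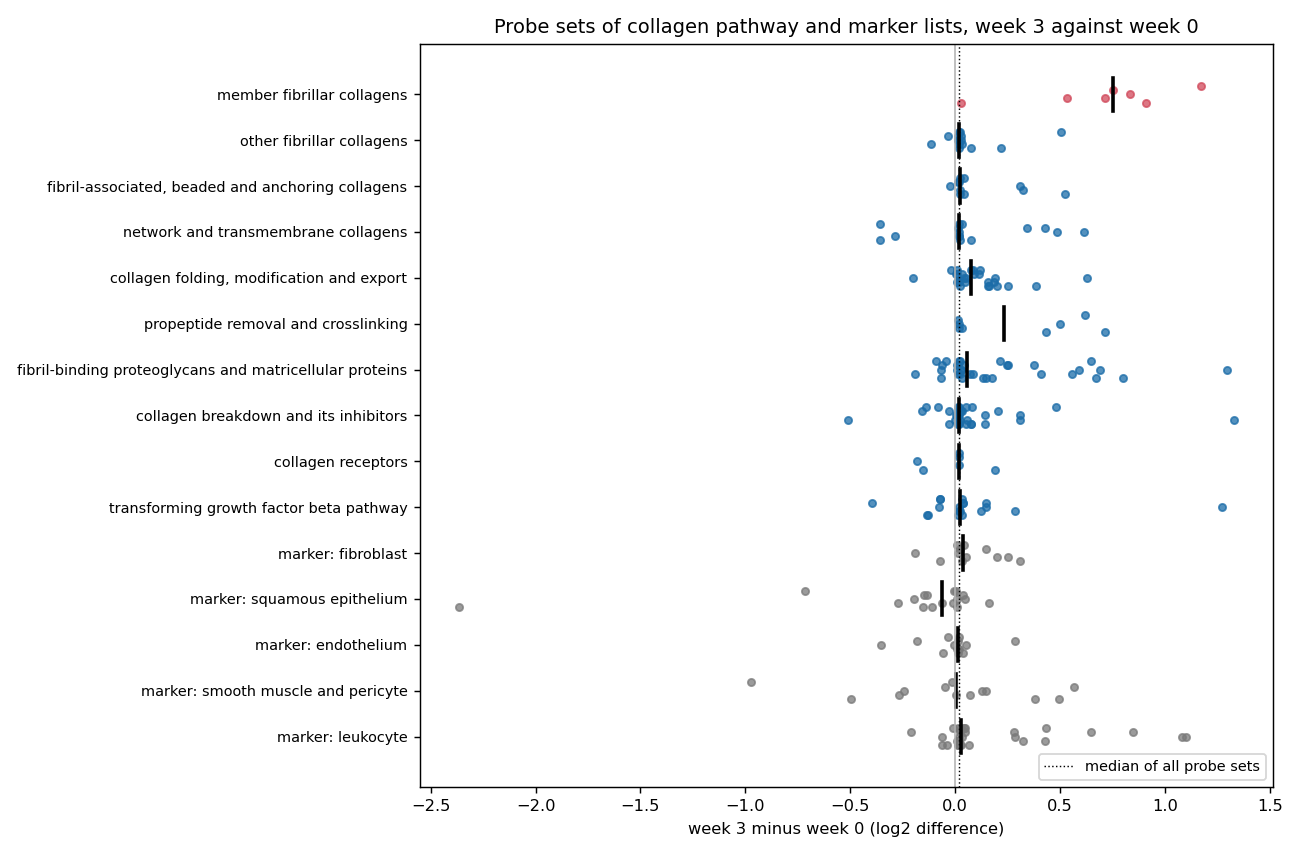
Each point is the log2 difference of week 3 minus week 0 of 1 probe set, grouped by list, and thick ticks give the list medians. The collagen members (red) have a median of 0.75, while the medians of the pathway lists (blue) lie between 0.02 and 0.23 and those of the marker lists (grey) between -0.06 and 0.04. Many probe sets of the pathway lists hardly varied, as A1_at of COL1A1, so their medians say little about the ones that did.

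At week 1 against week 0 the list medians were 0.04 for the other fibrillar collagens, 0.04 for folding and export, 0.13 for propeptide removal and crosslinking and 0.03 for the proteoglycans and matricellular proteins, where the median of all probe sets was 0.03 and 73% were above 0. At an unadjusted p under 0.05 the proteoglycan list had 5 probe sets higher and 2 lower, and the folding list 2 higher and none lower, against backgrounds of 3.28% higher and 1.87% lower. PLOD2 was at 0.72 ± 0.23, MRC2 at 0.45 ± 0.10, PCOLCE at 0.32 ± 0.22 and THBS4 at 0.10 ± 0.09. The other probe sets of PLOD2, MRC2 and PCOLCE were at 0.22, 0.02 and 0.22. At week 3 against week 1 the medians of the pathway lists lay between -0.02 and 0.08, with the highest in the proteoglycan list, where THBS4 was at 0.46.

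Papillae hold several cell types, and in bulk RNA fewer cells of a type cannot be told apart from less RNA per cell. Some probe sets of the marker lists were also in the pathway lists, such as FAP in that of collagen breakdown, so the lists are not independent. The fibroblast list had a median of 0.04 at week 3 against week 0, with 10 of 12 probe sets above 0 and 1, FAP, at an unadjusted p under 0.05. FAP, a protease of activated fibroblasts, was at 0.31 ± 0.13 and LUM, the proteoglycan lumican, at 0.15 ± 0.14, and the mean of the list per array ranged from -0.19 to 0.24 at week 0 and from -0.08 to 0.19 at week 3. At week 1 against week 0 its median was -0.05, with 6 above and 6 below 0. At an unadjusted p under 0.05 2 were higher and 1 lower, against 3.28% and 1.87% of all probe sets. The higher ones were PDGFRB at 0.25 ± 0.10 and S100A4 at 0.17 ± 0.07. The lower one was the fibril-binding proteoglycan decorin, DCN, at -0.65 ± 0.28, which was at -0.19 ± 0.28 at week 3 against week 0. PDGFRB, S100A4 and DCN were named after their values were seen.

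Most markers of squamous epithelium had values below 0 in the comparisons with week 0. Of 17 probe sets 11 were below 0 at week 3 against week 0 and 13 at week 1 against week 0, with medians of -0.06 and -0.11. The mean of the list per array ranged from 0.02 to 0.24 at week 0, from -0.13 to 0.09 at week 1 and from -0.15 to -0.03 at week 3, so weeks 0 and 3 did not overlap. The medians per array did overlap, at 0.00 to 0.05 against -0.02 to 0.01. The probe sets with the smallest p were 1 of the 2 of the desmosomal cadherin DSG1, at -2.37 ± 0.72, and PKP1, a desmosome plaque protein, at -0.27 ± 0.11. The other DSG1 probe set was at -0.71 ± 0.35. These 2 had the largest differences of the list and weighed most on its mean per array. The part of the epithelial share of the RNA in the collagen differences was not tested.

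The other marker lists had medians near that of all probe sets at week 3 against week 0. The endothelial list was at 0.01 over 14 probe sets, with PECAM1 at -0.18 ± 0.09 in 1 probe set and TEK at -0.35 ± 0.20. The other probe set of PECAM1 was at -0.04 ± 0.12. The smooth muscle and pericyte list was at 0.00 over 13, with the muscle filament gene DES at -0.97 ± 0.31 and the myosin kinase MYLK at 0.49 ± 0.16. The leukocyte list was at 0.03 over 31 probe sets, of which 26 were above 0, with the monocyte marker CD14 at 1.10 ± 0.46 and 0.85 ± 0.36 in its probe sets. The array means of these lists overlapped between weeks 0 and 3, at -0.10 to 0.10 against -0.16 to 0.07 for the endothelial, -0.17 to 0.21 against -0.14 to 0.25 for the muscle and -0.33 to 0.13 against -0.09 to 0.31 for the leukocyte list.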

How the data were processed

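Log2 expression values were deposited by the authors, computed with GCRMA per the submitters' processing notes, a method that corrects Affymetrix probe intensities for background and normalizes them between arrays. No source used here gives its version. Every probe set has a median of 0 over the 12 arrays. The log base is not stated. Base 2 was used, since a range of 11.2, the widest of any probe set, would exceed the 65535 levels of a 16-bit scanner if it were a natural log. No filter on level was possible on such values, and none was used.

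All 24016 probe sets other than the 112 controls were fitted with limma 3.58.1 in R 4.3.3, with a mean per week over the 12 arrays and eBayes without a trend. Tests were two-sided, with Benjamini-Hochberg adjustment over all probe sets and a threshold of 0.05, and SEs and 95% intervals are those of this model. Gene names came from the array annotation, and 13263 of the 13292 gene IDs matched RefSeq's genes for assembly ARS-UCD2.0, used for current symbols alone.

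The arrays of a cow deviated together from the weekly means (r of 0.303 to 0.690 within a cow, -0.435 to 0.0662 between cows), as 12 and 36 pairs of arrays showed. Taking off weekly means itself lowers r between cows where r within cows is positive. The consensus correlation over all probe sets, from the cow as a random block, was 0.0256. Each test was repeated with a term for the cow, called the block. Replicates within a week are different cows. The named genes were all member probe sets, the 8 most like their profile and, per list, the 2 probe sets with the smallest p at week 3 against week 0. Genes outside this rule are marked in the text. The 4 members and the lists were chosen with earlier results of these data known. Alternatives were blocks, normalization, array weights, an SD filter, other priors and arrays left out. Quantile normalization was applied to the deposited values, which were already normalized and centred per probe set. It therefore evened the distribution of these deviations between arrays and did not normalize levels anew.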

Additional observations from a re-analysis of the deposited data

Results flagged for a closer look

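Among the 7 collagen probe sets at 3 weeks, 2 of 21 groups of 4 arrays held a value far from the other 3, where chance gives about 1 in 20. In S1_at of COL1A2 week 0 of cow 1 was at -0.20, above the other forage arrays at -0.65 to -0.58. In S2_at of COL1A2 week 0 of cow 2 was at -0.78, below the other forage arrays at -0.54 to -0.49. Both arrays are among the 3 of high hybridization controls (0.49 and 0.72), and the part of this in the values was not tested.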

How the results depend on the processing

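All 7 members kept their direction in both comparisons with week 0 under every alternative run, and at week 3 against week 0 no member was called under any (adjusted p down to 0.0947, S2_at of COL3A1 with array weights). There S2_at of COL1A2 ranged from 1.00 to 1.31, S1_at of COL1A1 from 0.74 to 1.12, S2_at of COL3A1 from 0.75 to 0.92 and COL5A2 from 0.43 to 0.60. With array weights at week 1 S2_at of COL1A2 (adjusted p = 0.0397) and A1_at of COL1A1 (adjusted p = 0.0426) were called among 9970 probe sets, and 5 members passed the F test (adjusted p = 0.0441) among 6112. S1_at of COL1A2 at week 1, 0.46 as reported, was at 0.17 with array weights, S1_at of COL3A1 at 0.23 against 0.47 and S2_at of COL3A1 at 0.33 against 0.54. At week 3 against week 1 A1_at of COL1A1 turned to 0.0042 after quantile normalization, with or without the replicate block, and to 0.00055 after centring, with -0.0397 to 0.022 when 1 array or cow was left out, and COL5A2 with 1 left out ranged from -0.01628 to 0.2799. The cause of these turns was not tested.

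Limma called 0 probe sets in every comparison as reported (1237, 933, 1172 and, for the F test, 1204 at an unadjusted p under 0.05), and the count changed as follows. At week 1 against week 0 it was 2 with the replicate block, 1 with the cow as a random block and 2 without the 40% of lowest SD. It was 5 without the 3 arrays with high controls and 0 to 45 with 1 array or cow left out (6 without cow 1). The 45 came without week 1 of cow 1, the array of widest spread, where 10340 probe sets had an unadjusted p under 0.05. At week 3 against week 0 it was 2 after quantile normalization, 4 with the block as well, 7 with array weights, 6 without the 3 arrays and 0 to 2 with 1 left out. At week 3 against week 1 it was 97 with array weights, 12 without the 3 arrays and 0 to 38 with 1 left out. For the F test it was 1 with the replicate block, 8 without the 3 arrays and 0 to 28 with 1 left out. The block changed no call of a member.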

Other observations

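Probe sets of 1 gene could differ in their week difference, in genes named here after their values were seen. COL6A1 at week 3 against week 0 was at 0.53 in 1 probe set and at 0.01 and -0.02 in its others. FN1 was at 0.59 in 1 probe set and 0.03 in the other. TIMP2, an inhibitor of matrix metalloproteinases, was at 1.33 ± 0.51 (SE, n = 4 cows) in 1 probe set and at -0.16 and 0.08 in the others. OGN, a small leucine-rich proteoglycan of connective tissue, was at 1.30 ± 0.46 and FMOD, the fibril-binding fibromodulin, at 0.80 ± 0.23 in their only probe sets. Each was higher in all 4 cows, as were 36.3% of all probe sets. Weeks 0 and 3 overlapped in both, at -2.33 to 0.29 against -0.17 to 0.64 for OGN and -1.17 to -0.03 against -0.26 to 0.54 for FMOD.

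The matrix metalloproteinase and cysteine protease genes that cleave fibrillar collagen showed values of both signs, and those given here were also chosen after their values were seen. The collagenase MMP13 was at 0.72 ± 0.55 and 0.12 ± 0.08 in its probe sets at week 1 against week 0. At week 3 against week 0 they were at -0.51 ± 0.55 and -0.03 ± 0.08. The probe set at 0.72 was higher in only 2 cows at week 1, where its arrays ran from -0.29 to 2.11. In no cow was that probe set higher at week 3 than at week 0. Cathepsin K, CTSK, was at -0.21 ± 0.17 and -0.14 ± 0.17 in the same comparisons. None of them was called by limma.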
